A study of Mus musculus with 10 samples.

Results

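The nuclear factor I (NFI) family consists in mouse of the paralogous genes Nfia, Nfib, Nfic and Nfix, which were taken by their gene symbols from the expression matrix deposited with the series. All 4 were present among the 15686 genes of that matrix, and all 4 passed the filter on low counts that was applied to the tables of raw counts, which left 22596 of 55487 genes.

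The study differentiated the mouse embryonic stem (ES) cell line HM-1 toward blood in serum and sequenced nuclear RNA, depleted of ribosomal RNA, at 5 stages with 2 libraries each. The ES group held undifferentiated cells kept in LIF. Hemangioblasts (HB) were selected on FLK1 beads from embryoid bodies after 3 days. HB cells were then cultured for 2.5 days in blast medium and sorted into the first hemogenic endothelium (HE1; KIT+, TIE2+, CD41−), the second hemogenic endothelium (HE2; KIT+, TIE2+, CD41+) and hematopoietic progenitors (HP; KIT+, TIE2−, CD41+). All groups came from the same ES line, no genotype differed between them, and HE1, HE2 and HP were gates on the same kind of culture. The study describes replicates of its expression values as biologically independent, but the labels do not say which libraries came from separate cultures, so p-values measure only the spread between these samples, which may be technical. Totals per library lay between 24920434 and 58782055 counted read pairs, and 3 counts, used as the floor of detection, stood for 0.0532 to 0.126 counts per 1000000 (CPM). Floors cover counting error only.

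NFI proteins bind DNA as homodimers or heterodimers through a conserved amino-terminal domain, and their carboxy-terminal parts activate or repress transcription depending on the gene. The palindromic site they recognise is TTGGC, 5 bases of any kind and GCCAA, so that its cores face each other on opposite strands. Family members act in the development of brain, lung, muscle and tooth, and in blood NFIA has been linked to the choice between erythroid and granulocytic fates and NFIX to the survival of stem and progenitor cells.

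Markers of each stage were read first. Series of 10 values run in the order ES, HB, HE1, HE2 and HP, with replicate 1 before replicate 2. The summed level of 5 ES cell markers was 1998, 1920, 98.8, 74.5, 6.31, 67.0, 2.86, 2.19, 6.05 and 1.40 CPM, with Pou5f1 the most abundant of them in ES at 549 and 520.1 CPM. Mesoderm and hemangioblast markers summed to 9.81, 10.8, 1428, 1751, 1277, 734, 936, 636, 339 and 348 CPM, and Kdr, which encodes FLK1, was the most abundant in every library from HB onward. The 6 endothelial markers summed to 352, 368, 294, 263, 2997, 1740, 1898, 1331, 784 and 720 CPM, led in HE1 and HE2 by Cdh5, the gene of VE-cadherin, and in HP by Kit. The 6 hematopoietic markers summed to 26.8, 25.3, 148, 144, 311, 199, 995, 1365, 1394 and 1192 CPM, led in HP by Runx1. ES markers were thus high in ES, T in HB, Cdh5 and Tek in HE1, and Runx1, Gfi1b and Spi1 in HE2 and HP, as the labels say. Kdr did not set HB apart from HE1, with means of 1120 and 992 CPM (log2 −0.18, not called). Kit and Pecam1, of the endothelial list, had means of 168 and 161 CPM in ES, above their 71.3 and 36.1 CPM in HB. Itga2b, the gene of CD41, was at 227 and 127 CPM in the CD41-negative HE1 gate and at 505 and 469 CPM in HE2. Tek, the gene of TIE2, had a mean of 62.8 CPM in the TIE2-negative HP gate. Its means were 222 CPM in HE2, 59.0 in HB and 30.2 in ES.

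Markers of other cells were present as well. Mesenchymal and smooth muscle markers summed to 146, 162, 124, 122, 1033, 1841, 1166, 826, 1498 and 764 CPM, with Acta2 or Col1a1 the most abundant from HB onward. Dcn and Lum stayed under 0.5 CPM in all 10 libraries. Means in HE1 were 280 CPM for Tagln, 143 for Col1a2, 32.6 for Postn, 31.3 for Pdgfrb, 30.6 for Col3a1 and 9.41 for Twist1. Erythroid markers, led by the embryonic globin gene Hbb-bh1, summed to 2.36, 2.41, 10.1, 11.4, 485, 234, 1990, 1573, 4286 and 2285 CPM. Cardiac markers summed to 10.5, 10.7, 7.01, 5.80, 27.6, 94.8, 16.2, 7.40, 12.8 and 7.98 CPM and were highest in HE1 replicate 2 through Tnnt2. Neural markers summed to 218, 239, 61.8, 57.4, 271, 352, 187, 123, 108 and 105 CPM, most of it from Nes, with Sox1 and Pax6 under 1 CPM from HB onward except for Sox1 at 2.15 CPM in HE1 replicate 2. Tubb3 had means of 41.4 CPM in ES, 1.48 in HB, 51.4 (SD 31.3) in HE1, 21.7 in HE2 and 21.6 in HP. Macrophage markers summed to 17.8, 18.8, 14.7, 13.0, 51.5, 27.8, 43.6, 32.8, 38.3 and 45.4 CPM, with Adgre1 at 2.26 CPM or less. Lyz2 had means of 0.0447 CPM in HB, 13.8 in HE2 and 16.7 in HP, and Csf1r of 0.0306 in HB and 7.65 in HP. Mrc1 had means of 26.5 CPM in HE1 and 4.36 in HP, and Cd68 of 10.6 and 11.4. Endoderm markers summed to 5.07, 4.82, 260.3, 298, 348, 245, 119, 46.3, 14.7 and 36.0 CPM, most of it from Gata4 and Sox7, while Afp and Ttr stayed under 0.5 CPM.

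In HE1, HE2 and HP the libraries of a stage stood further apart than in ES and HB. HE1 replicate 2 held more Pou5f1 than HE1 replicate 1 (26.3 against 2.82 CPM), more Tnnt2 (74.2 against 16.0 CPM) and more Col1a1 (671 against 176 CPM), and less Cdh5 (798 against 1431 CPM). Across genes, the libraries of HE1 had a Pearson correlation of 0.967 on the log2 scale, those of HE2 and HP 0.983, those of HB 0.988 and those of ES 0.994. HE2 replicate 2 held less Cdh5 (412 against 862 CPM) and less Sox17 (8.38 against 31.0 CPM) than HE2 replicate 1, with more Runx1 (519 against 295 CPM) and more Spi1 (65.9 against 26.4 CPM). HP replicate 2 held less Acta2 (249 against 529 CPM) and less Hba-x (643 against 1518 CPM) than HP replicate 1. Comparisons between stages whose call or direction for an NFI gene rests on any of these libraries are given with and without that library, while ratio tests, correlations and ranks of likeness use all 10 libraries.

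Nfia (ENSMUSG00000028565) spans 97772734 to 98118874 on the plus strand of chromosome 4 in GRCm38. It was counted at 72, 39, 259, 275, 978, 1209, 644, 233, 240 and 272 read pairs in the 10 libraries. Scaled by library size, the ES libraries had 1.28 and 1.12 CPM, the HB libraries 8.56 and 7.75, the HE1 libraries 41.1 and 39.9, the HE2 libraries 19.6 and 7.40, and the HP libraries 5.48 and 8.65. Both HE1 libraries lay above every other library and both ES libraries below every other, whereas HB, HE2 and HP overlapped. The stage means were 40.5 ± 0.852 CPM in HE1 (SD, n = 2), 13.5 ± 8.64 in HE2, 8.15 ± 0.577 in HB, 7.06 ± 2.24 in HP and 1.20 ± 0.112 in ES. In this order the neighbours HE2 and HB, and HB and HP, did not differ beyond the spread of their libraries.

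Nfib (ENSMUSG00000008575) lies on the minus strand of the same chromosome, from 82290173 to 82705750, 15.1 Mb from Nfia. Its counts were 1001, 579, 541, 461, 2359, 2545, 1254, 383, 135 and 382. This gave 17.8 and 16.6 CPM for the ES libraries, 17.9 and 13.0 for HB, 99.2 and 84.1 for HE1, 38.2 and 12.2 for HE2, and 3.08 and 12.1 for HP. Nfib was thus highest in both HE1 libraries and lowest in both HP libraries, HP replicate 2 being barely under HE2 replicate 2, and the HE2 libraries fell on either side of ES and HB. Means ran from 91.6 ± 10.7 CPM in HE1 (SD, n = 2) through 25.2 ± 18.4 in HE2, 17.2 ± 0.810 in ES and 15.4 ± 3.46 in HB to 7.61 ± 6.41 in HP. HE2 overlapped ES, ES overlapped HB, and HB and HP came within a CPM of each other at 13.0 and 12.1 CPM.

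Nfic (ENSMUSG00000055053), on the minus strand of chromosome 10 from 81396186 to 81455635, was the most evenly transcribed paralogue. It had 1763, 1175, 865, 1051, 1339, 1920, 1209, 746, 1047 and 751 counts. The ES libraries held 31.3 and 33.7 CPM, those of HB 28.6 and 29.6, those of HE1 56.3 and 63.4, those of HE2 36.8 and 23.7, and those of HP 23.9 and 23.9. Only HE1 stood clear of the other stages on the high side. The mean was 59.9 ± 5.02 CPM in HE1 (SD, n = 2), 32.5 ± 1.72 in ES, 30.3 ± 9.30 in HE2, 29.1 ± 0.713 in HB and 23.9 ± 0.00788 in HP, and HE2 overlapped both of its neighbours in this order.

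Nfix (ENSMUSG00000001911), on the minus strand of chromosome 8 from 84699876 to 84800344, had a pattern unlike the other paralogues. Its counts were 280, 178, 50, 71, 66, 185, 134, 191, 488 and 253. Levels were 4.97 and 5.11 CPM for the ES libraries, 1.65 and 2.00 for HB, 2.78 and 6.11 for HE1, 4.08 and 6.06 for HE2, and 11.1 and 8.04 for HP. Both HP libraries were above all others and both HB libraries below all others, and ES, HE1 and HE2 overlapped. Means fell in the order HP with 9.59 ± 2.18 CPM (SD, n = 2), HE2 with 5.07 ± 1.40, ES with 5.04 ± 0.0989, HE1 with 4.44 ± 2.36 and HB with 1.83 ± 0.245.

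The matrix of stage scores gave the same order of stages for Nfia, with scores of 45.5 in HE1, 12.8 in HE2, 8.93 in HB, 7.48 in HP and 1.29 in ES. Nfib kept its order as well, with scores of 102 in HE1, 22.8 in HE2, 18.4 in ES, 16.7 in HB and 6.65 in HP. For Nfic, HB at 31.9 and HE2 at 31.3 changed places relative to the mean CPM, and for Nfix, ES at 5.40 and HE2 at 5.29 did. Both were neighbours whose libraries overlapped.

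**Figure D1:**
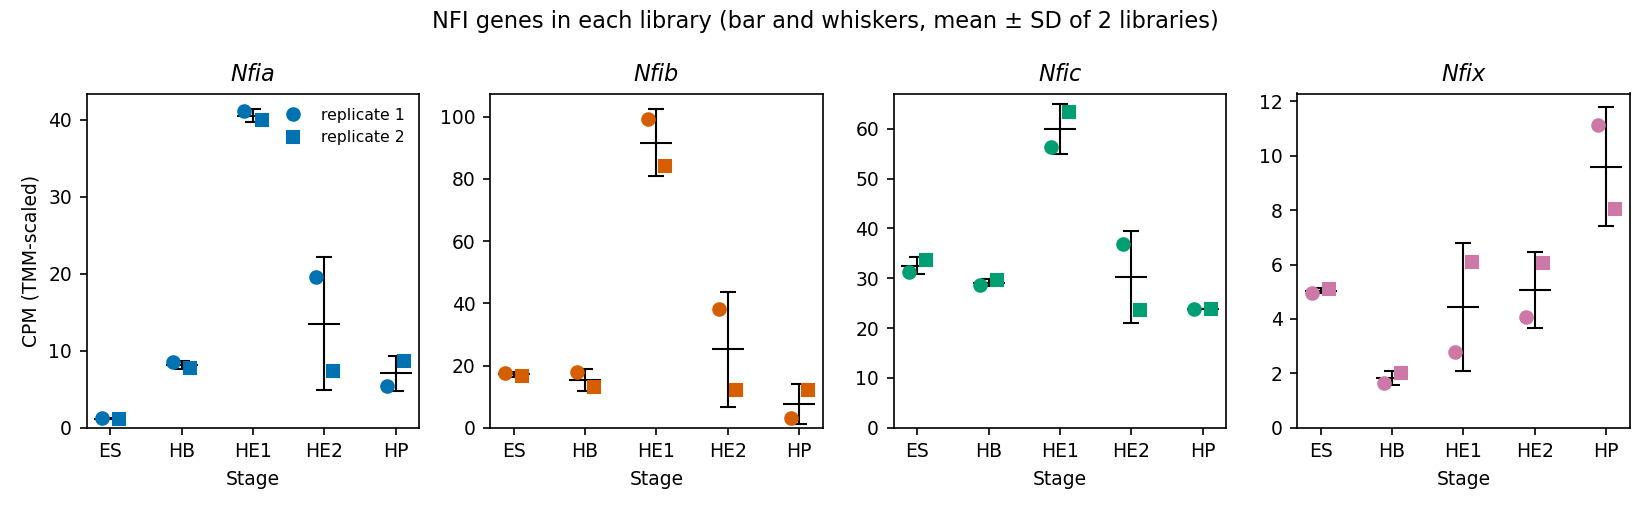
Level of each NFI gene in CPM (vertical axis) at the 5 stages (horizontal axis), with a point for each library and the mean of the 2 libraries with its SD. Nfia, Nfib and Nfic peak in HE1 at 40.5, 91.6 and 59.9 CPM, and Nfix is highest in HP at 9.59 CPM.

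Set against all tested genes, the paralogues differed in how widely their level ranged over the stages. The highest and lowest stage of Nfia were 5.02 apart on the log2 scale, more than for 93.0% of tested genes, whose median range was 1.56. For Nfib the range was 3.88, exceeding that of 86.2% of tested genes. Nfix ranged over 2.34, above 66.6% of the genes. Nfic ranged over 1.32, below the median gene and above 42.9% of them.

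Levels of different genes were compared only per kilobase of exon (RPKM), because the annotated exons sum to 10891 bases in Nfia, 14957 in Nfib, 6630 in Nfic and 7351 in Nfix. On this scale Nfic was the most abundant paralogue in every library. In the order of the stages from ES to HP, its mean RPKM was 4.90, 4.39, 9.03, 4.56 and 3.60. Nfib had a mean of 6.13 RPKM for HE1, against 1.15 for ES, 1.68 for HE2 and 0.509 for HP, with 1.20 and 0.868 in the HB libraries. Nfia was at 0.110, 0.749, 3.72, 1.24 and 0.648 RPKM from ES to HP. Read the same way, Nfix was at 0.685, 0.248, 0.604, 0.690 and 1.30 RPKM, the only paralogue with its highest mean in HP. The sum of the 4 genes was 6.70, 6.99, 6.52, 6.32, 19.3, 19.7, 10.5, 5.89, 5.83 and 6.30 RPKM in the 10 libraries, so that it was highest in both HE1 libraries and all others except HE2 replicate 1 lay between 5.83 and 6.99 RPKM.

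The make-up of this sum changed from stage to stage. Nfic made up 70.4%, 72.7%, 66.2%, 70.7%, 44.1%, 48.6%, 53.1%, 60.7%, 61.8% and 57.1% of the summed RPKM in the 10 libraries. Nfib took 17.7%, 15.9%, 18.3%, 13.7%, 34.4%, 28.6%, 24.4%, 13.8%, 3.53% and 12.9%. HE1 was thus the stage with the lowest share of Nfic and the highest share of Nfib in both of its libraries. The share of Nfia was 1.75%, 1.47%, 12.1%, 11.3%, 19.6%, 18.6%, 17.2%, 11.5%, 8.63% and 12.6%. Nfix contributed 10.1%, 9.93%, 3.45%, 4.31%, 1.96%, 4.22%, 5.31%, 14.0%, 26.0% and 17.4%. Per kilobase, Nfix was the second most abundant paralogue in both HP libraries, and Nfia was the least abundant in both ES libraries. By CPM, without exon length, the order differed in 5 libraries: Nfib was above Nfic in both HE1 libraries and in HE2 replicate 1, Nfix was the lowest rather than the second in HP replicate 2, and it was the lowest rather than the second in HE2 replicate 2 as well.

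**Figure D2:**
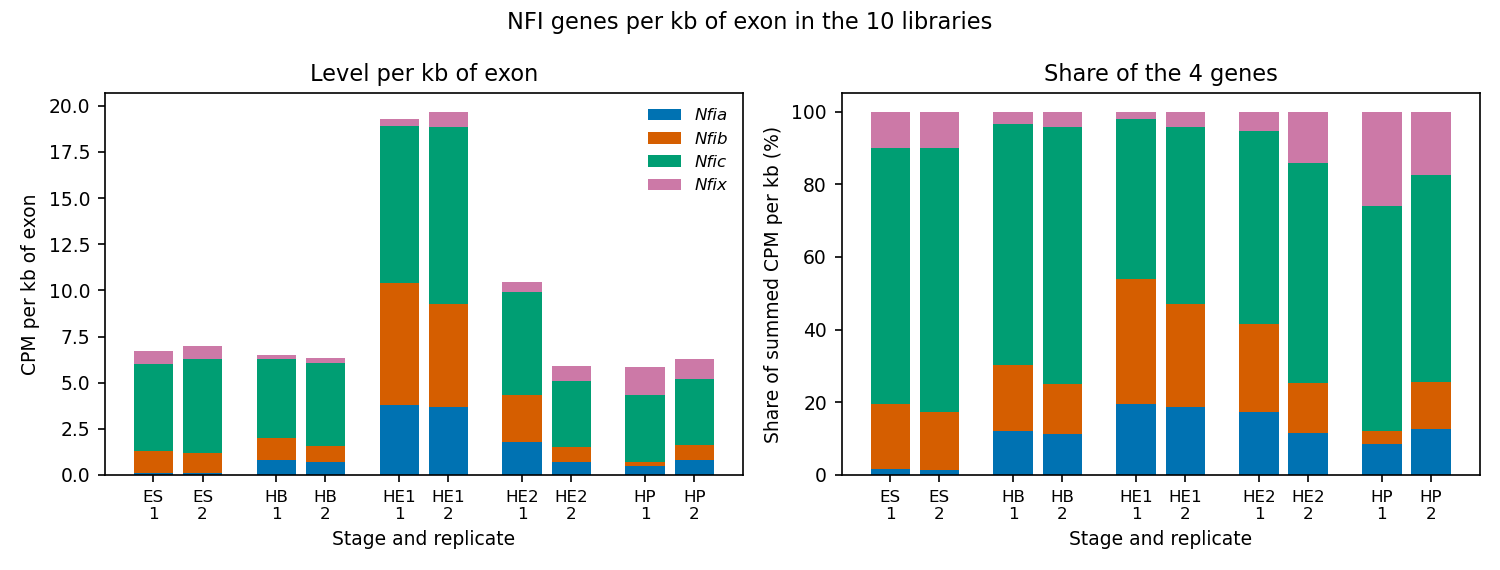
Stacked bars of the 4 NFI genes in each library (horizontal axis, stage and replicate), as CPM per kilobase of exon on the left and as a percent share of their sum on the right. The sum is highest in HE1 (19.3 and 19.7), Nfic is the largest share in every library, and Nfix is at its largest share in HP (26.0% and 17.4%).

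From ES to HB, the step from pluripotent cells to FLK1-positive mesoderm, Nfia rose and Nfix fell. Nfia rose 6.75-fold, by 2.76 on the log2 scale (SE 0.424, adjusted p = 0.000533), with both HB libraries above both ES libraries. Nfix fell by 1.46 on the log2 scale (SE 0.399, adjusted p = 0.0140), with both HB libraries below both ES libraries. The differences of Nfib (log2 −0.16, adjusted p = 0.858) and Nfic (log2 −0.16, adjusted p = 0.560) were smaller than their standard errors of 0.564 and 0.196. Of the 4 genes, 1 was called higher and 1 lower, where 11.5% of all tested genes were called higher and 17.3% lower. To be called, a gene needed an adjusted p under 0.05 and a 2-fold or larger difference. The call of Nfix was lost when any single library of either stage was left out: the log2 difference was then −1.47 without ES replicate 1 (adjusted p = 0.0546), −1.43 without ES replicate 2 (adjusted p = 0.0590), −1.30 without HB replicate 1 (adjusted p = 0.0977) and −1.60 without HB replicate 2 (adjusted p = 0.0579). Without HB replicate 2 the difference of Nfib turned to 0.06. Alongside, 5 of 5 ES cell, 4 of 5 neural, 3 of 9 tested mesenchymal, 2 of 6 endothelial, 2 of 5 cardiac, 1 of 6 hematopoietic and 1 of 5 macrophage markers were called lower. Higher were 5 of 5 mesoderm, 3 of 3 tested endoderm, 4 of 6 hematopoietic, 3 of 6 endothelial, 2 of 5 erythroid, 2 of 9 mesenchymal and 1 of 5 cardiac markers; what they contribute to the levels of Nfia and Nfix was not tested. In these bulk samples, fewer cells of a type and less RNA per cell cannot be told apart.

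The step from HB to HE1 asks which genes accompany entry into the hemogenic endothelium, and all 4 NFI genes rose there. Nfib rose most, by 2.57 on the log2 scale (5.94-fold, SE 0.590, adjusted p = 0.00841). Nfia rose by 2.31 (4.97-fold, SE 0.391, adjusted p = 0.00167). Nfix rose by 1.29 (2.44-fold, SE 0.402, adjusted p = 0.0327) and Nfic by 1.04 (2.06-fold, SE 0.197, adjusted p = 0.00314). For each gene both HE1 libraries lay above both HB libraries. The 4 of 4 called higher and 0 called lower stand against 12.7% of all tested genes called higher and 8.19% called lower, and the median log2 difference of the 4 genes was 1.80 against 0.04 over all tested genes. Endothelial markers moved with them (5 of 6 higher, with Cdh5 up by 3.50), as did mesenchymal markers (7 of 9 tested higher, with Col1a1 up by 3.20) and cardiac markers (4 of 5 higher, with Tnnt2 up by 4.71). Erythroid markers were called higher in 4 of 5 cases, neural markers in 3 of 5, macrophage markers in 2 of 5 and hematopoietic markers in 2 of 6, and mesoderm markers were lower in 4 of 5. Their part in the result was not tested.

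Calls at this step depended on single libraries for every paralogue except Nfia. Nfix differed by 0.60 without HE1 replicate 2 (adjusted p = 0.270), by 1.09 without HB replicate 1 (adjusted p = 0.167) and by 1.39 without HB replicate 2 (adjusted p = 0.119), and it was not called by limma-voom (log2 1.21, adjusted p = 0.0680). In HE1 replicate 2, where Nfix was at 6.11 CPM against 2.78 CPM in its partner, ES cell markers summed to 67.0 CPM against 6.31 CPM, and mesenchymal and cardiac markers were higher too; their part in the level of Nfix was not tested. Nfic came in just under the 2-fold line without HB replicate 1 (log2 0.95, adjusted p = 0.0344) and without HE1 replicate 2 (log2 0.96, adjusted p = 0.0168). Nfib had an adjusted p of 0.0788 without HB replicate 2 (log2 2.31). Without that library the number of genes called dropped from 4722 to 2803.

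From HE1 to HE2, within the hemogenic endothelium as CD41 appears, Nfia fell and no other NFI gene was called. Nfia fell by 1.58 on the log2 scale (3.00-fold, SE 0.380, adjusted p = 0.0276), with both HE2 libraries below both HE1 libraries. Nfib differed by −1.86 with a wider error (SE 0.573, adjusted p = 0.0552), and Nfic by −0.98 (SE 0.197, adjusted p = 0.0156), which is 1.98-fold and so just short of the fold required. Nfix differed by 0.18 (SE 0.386, adjusted p = 0.750). With 0 of 4 called higher and 1 of 4 lower, the background was 3.26% of tested genes called higher and 5.39% called lower. The median over the 4 genes was −1.28, against −0.08 over all tested genes. The same step called 6 of 6 hematopoietic markers and 5 of 5 erythroid markers higher, and 5 of 5 ES cell markers and 4 of 5 cardiac markers lower. Of the endothelial markers, 1 of 6 was called higher and 1 lower, where Sox17 fell by 2.14 on the log2 scale. Also lower were 2 of 5 mesoderm, 1 of 9 tested mesenchymal, 1 of 5 neural and 1 of 3 tested endoderm markers, and 1 of 5 macrophage markers was higher. Their part was not tested.

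These calls depended on single libraries of both stages. Nfia was at 19.6 CPM in HE2 replicate 1 and 7.40 in replicate 2, and Nfib at 38.2 and 12.2 CPM. Alongside, the endothelial markers summed to 1898 and 1331 CPM (5 of 6 higher in replicate 1, all but Kit), Cdh5 being the most abundant at 862 and 412 CPM, and the hematopoietic markers to 995 and 1365 CPM. Their part in the levels of Nfia and Nfib was not tested. Without HE2 replicate 1, Nfia, Nfib and Nfic were all called lower, with log2 differences of −2.43 (adjusted p = 0.00101), −2.89 (adjusted p = 0.0124) and −1.32 (adjusted p = 0.00138). Without HE2 replicate 2 none was called: Nfia differed by −1.03 (adjusted p = 0.121), and Nfix turned to −0.11. Without HE1 replicate 2 the difference of Nfia was −1.61 (adjusted p = 0.0975), and without HE1 replicate 1 Nfic was called (log2 −1.05, adjusted p = 0.0143) and Nfix turned to −0.24. The number of genes called, 1954 with all libraries, was 628 without HE1 replicate 2, 4295 without HE1 replicate 1, 3207 without HE2 replicate 1 and 422 without HE2 replicate 2. By limma-voom, Nfib (log2 −2.07, adjusted p = 0.0178) and Nfic (log2 −1.02, adjusted p = 0.0102) were called lower with all libraries.

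HP differ from HE2 by the loss of TIE2 at the surface, and no NFI gene was called between them. Log2 differences were −0.94 for Nfia (SE 0.382, adjusted p = 0.532), −1.74 for Nfib (SE 0.585, adjusted p = 0.368), −0.34 for Nfic (SE 0.197, adjusted p = 0.815) and 0.92 for Nfix (SE 0.383, adjusted p = 0.555). Both HP libraries of Nfix lay above both HE2 libraries, and both HP libraries of Nfib below both HE2 libraries, though at the closest only by 12.1 against 12.2 CPM, whereas Nfia overlapped. By edgeR 0 genes of any kind were called in this comparison, 0% higher and 0% lower, although 1783 genes had an unadjusted p under 0.05, 670 higher and 1113 lower. By limma-voom 62 genes were called and by DESeq2 301, none of the 4 NFI genes among them. Without HE2 replicate 2, Nfia (log2 −1.48, adjusted p = 0.0208) and Nfib (log2 −2.34, adjusted p = 0.0496) were called lower and 525 genes in all were called; the library left out is the HE2 library with less Cdh5 and Sox17. With all libraries no marker was called between HE2 and HP, and median log2 differences were −1.93 for endothelial, −1.48 for endoderm, −0.66 for neural, −0.38 for mesoderm, 0.16 for mesenchymal, 0.29 for cardiac, 0.39 for ES cell, 0.53 for hematopoietic, 0.76 for macrophage and 0.90 for erythroid markers. Their part was not tested. Without HE2 replicate 1 the difference of Nfic turned to 0.01. With no filter on low counts Nfib was called (adjusted p = 6.22e-12) at nearly the same log2 difference, −1.75, and why its p changed was not tested.

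Between HE1 and HP, the ends of the endothelial to hematopoietic transition in these gates, Nfia, Nfib and Nfic fell. Nfib fell by 3.60 on the log2 scale (12.2-fold, SE 0.620, adjusted p = 0.00262). Nfia fell by 2.53 (5.76-fold, SE 0.395, adjusted p = 0.00160) and Nfic fell by 1.33 (2.51-fold, SE 0.199, adjusted p = 0.00129). Every HP library was below every HE1 library for these genes. Nfix had the opposite sign, with a log2 difference of 1.10 (SE 0.386, adjusted p = 0.0601), and was higher in both HP libraries than in both HE1 libraries, but was not called. With 3 of 4 called lower and 0 higher, 11.2% of all tested genes were called lower and 5.35% higher. Markers called lower were 5 of 6 endothelial (1 higher), 5 of 5 ES cell, 4 of 5 mesoderm, 4 of 5 cardiac, 3 of 5 neural, 2 of 3 tested endoderm, 2 of 9 tested mesenchymal and 1 of 5 macrophage markers. Called higher were 6 of 6 hematopoietic, 5 of 5 erythroid and 3 of 5 macrophage markers. The part of these cells in the result was not tested. Nfix was called higher without HE1 replicate 2 (log2 1.79, adjusted p = 0.0147), by limma-voom (log2 1.18, adjusted p = 0.0336) and by DESeq2 (log2 1.09, adjusted p = 0.0344). The size of the fall of Nfib rested on the HP libraries, with −4.88 without HP replicate 2 and −2.90 without HP replicate 1, and the number of genes called was 1905 without HP replicate 1 against 3735 with it. In HP replicate 2, where Nfib was at 12.1 CPM against 3.08 in replicate 1, Sox17 was at 7.88 against 1.85 CPM and Cdh5 at 179 against 118 CPM. Kit went the other way, at 251 against 363 CPM. The endothelial markers as a list summed to 720 against 784 CPM and the mesenchymal markers to 764 against 1498 CPM. Their part in the level of Nfib was not tested.

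Set against the starting ES cells, HP carried more Nfia. Nfia was higher by 2.54 on the log2 scale (5.83-fold, SE 0.423, adjusted p = 0.000571), with both HP libraries above both ES libraries. Nfib differed by −1.19 (SE 0.579, adjusted p = 0.110), Nfic by −0.44 (SE 0.196, adjusted p = 0.0818) and Nfix by 0.93 (SE 0.381, adjusted p = 0.0628). Here 1 of 4 was called higher and 0 lower, against 16.7% of all tested genes called higher and 21.9% lower. Markers that were higher in HP than in ES were 6 of 6 hematopoietic, 5 of 5 erythroid, 7 of 9 tested mesenchymal, 4 of 6 endothelial, 3 of 3 tested endoderm, 3 of 5 macrophage, 2 of 5 mesoderm and 2 of 5 cardiac. Those lower were 5 of 5 ES cell, 3 of 5 neural, 1 of 5 mesoderm and 1 of 5 cardiac, and their part in the level of Nfia was not tested. Nfib was called lower without HP replicate 2 (log2 −2.48, adjusted p = 0.00784) and by limma-voom (log2 −1.61, adjusted p = 0.0465). The 6 comparisons share samples with each other, so their values stand side by side and are not independent.

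Whether the paralogues changed in proportion to one another was tested on ratios of counts, with a prior of 2 counts added to each, without scaling by library size. For each of the 6 pairs the log2 ratio per kilobase was compared over the 5 stages by an exact permutation test on the F statistic, over all 945 ways to pair the libraries. The smallest p this design allows is 0.00106, and a comparison of 2 stages alone could not go below 0.333. From ES to HP, the ratio of Nfia to Nfib had stage means of −3.34, −0.44, −0.71, −0.38 and 0.62 (exact permutation p = 0.00423, adjusted over the 6 pairs 0.0127). ES stood apart in this ratio, since Nfia was at its lowest there while Nfib was not. Nfia to Nfix gave −2.60, 1.56, 2.71, 0.70 and −1.02 in the same order (exact permutation p = 0.00423, adjusted 0.0127). Nfia to Nfic gave −5.43, −2.55, −1.28, −2.00 and −2.50 (exact permutation p = 0.0106, adjusted 0.0212). Nfia thus gained on each of the other paralogues after ES.

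The ratio of Nfib to Nfix went from 0.74 through 2.00, 3.42 and 1.08 to −1.65 from ES to HP (exact permutation p = 0.0190, adjusted 0.0229), a span of 5.07 on the log2 scale. In single libraries it was 4.09 and 2.74 in HE1 and −2.86 and −0.43 in HP. Per kilobase, Nfib thus exceeded Nfix in both HE1 libraries and Nfix exceeded Nfib in both HP libraries. Without exon length Nfib was above Nfix in HP replicate 2, at 12.1 against 8.04 CPM. Nfic to Nfix ran 2.83, 4.10, 3.98, 2.70 and 1.48 from ES to HP (exact permutation p = 0.0180, adjusted 0.0229), with Nfic above Nfix throughout. Nfib to Nfic ran −2.09, −2.10, −0.56, −1.63 and −3.13 (exact permutation p = 0.0571, adjusted 0.0571), and a change of this ratio over the stages did not pass. The test concerns all 5 stages together and does not say between which of them a ratio differed. Over the 10 libraries, which fall into 5 stages, Pearson's r of log2 CPM was 0.905 between Nfib and Nfic (Spearman's rho 0.855), 0.615 between Nfia and Nfib (0.612) and 0.582 between Nfia and Nfic (0.442). With Nfix it was −0.178 for Nfia (−0.188), −0.383 for Nfib (−0.539) and −0.225 for Nfic (−0.273).

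The study took genes as newly active by a mean under 9 CPM before and a rise called by limma-voom; with the edgeR calls used here in its place, Nfia qualified at 2 steps. It qualified from ES to HB, with 1.20 CPM before, as did 8.64% of all tested genes, and again from HB to HE1, with 8.15 CPM before, as did 9.36%. Nfix qualified from HB to HE1, with 1.83 CPM before, but would not with limma-voom (log2 1.21, adjusted p = 0.0680). From HE1 to HP, where 3.85% of genes qualified by edgeR, Nfix did not, while with limma-voom it would (log2 1.18, adjusted p = 0.0336), with 4.44 CPM before. Nfib and Nfic exceeded 9 CPM before each of their rises.

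Genes whose pattern was most like that of each paralogue were ranked by Pearson's r of log2 CPM over the 10 libraries, among 15566 tested genes of the matrix. For Nfia these were Creb3l2 (0.993), Ppp3r2 (0.993), Abi3 (0.993), Adcy6 (0.992) and Adcy4 (0.992). Adcy4, an adenylyl cyclase gene, was at 94.1 and 63.0 CPM in HE1 against 0.532 and 0.516 in ES, whereas Ppp3r2 stayed under 1 CPM in every library. For Nfib the top genes were Bcl6b (0.985), Ushbp1 (0.983), Pcdh1 (0.982), Ttc9 (0.980) and Ace (0.979). Bcl6b, which encodes a zinc finger repressor, was at 127 and 97.5 CPM in HE1 and, like Nfib, at 1.55 and 11.7 CPM in HP replicates 1 and 2. For Nfic they included Iffo2 (0.992), Zfyve1 (0.992), Bcar1 (0.979) and Amotl2 (0.964), of which Bcar1 encodes an adaptor at focal contacts of the cell. For Nfix they were Rhoh (0.982), Cmtm7 (0.954), Myo1g (0.948), Rab44 (0.934) and Rgs14 (0.930). Rhoh, a GTPase gene of blood cells, stayed under 1 CPM, and Myo1g, an unconventional myosin gene, was at 27.0 and 29.5 CPM in HP and 0.992 and 0.620 in HB. The top 5 were not stable to the measure: by Spearman's rho 0 of 5 were shared for Nfia, 2 for Nfib, 2 for Nfic and 4 for Nfix. Ranked on stage means instead of libraries, 2 of 5 were shared for Nfia, 2 for Nfib, 3 for Nfic and 1 for Nfix.

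Genes linked to NFI factors in other tissues formed a list of 14, all of them tested. From ES to HB 6 rose and 0 fell, where 11.5% of all tested genes rose and 17.3% fell, with a median log2 difference of 1.44 against 0 over all tested genes. Erg, an ETS factor gene of endothelium and blood, rose by 6.84 (adjusted p = 8.33e-07), and Hes1, a Notch target gene known as repressed by NFI factors in brain, rose by 2.23 (adjusted p = 3.59e-05). From HB to HE1 5 rose and 4 fell (median 0.48 against 0.04), against 12.7% and 8.19% of all tested genes. Mecom, the gene of the zinc finger factor EVI1, rose by 3.19 (adjusted p = 0.00145), and Hes1 fell by 2.08 on the log2 scale (adjusted p = 0.000125). Members of the list thus moved both ways at the step where all 4 NFI genes were called higher by edgeR with all libraries.

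From HE1 to HE2 2 of the 14 rose and 2 fell (median −0.26 against −0.08), against 3.26% and 5.39% of all tested genes. Csf3r, the G-CSF receptor gene, rose by 4.60 (adjusted p = 0.000498). Apcdd1, a Wnt inhibitor gene, fell by 2.11 on the log2 scale (adjusted p = 0.0150) and Nfatc4 fell by 1.44 (adjusted p = 0.0267). From HE1 to HP 3 rose and 5 fell (median −0.67 against −0.02; 5.35% and 11.2% of all tested genes), among them Mecom, which fell by 3.84 on the log2 scale (adjusted p = 0.00102), and Csf1r, the M-CSF receptor gene, which rose by 3.17 (adjusted p = 0.00268). From HE2 to HP 0 of 14 were called by edgeR (median −0.22 against 0.01), as for all genes. From ES to HP 5 rose and 2 fell (median 0.94 against −0.01; 16.7% and 21.9% of all tested genes). Ezh2, a Polycomb methyltransferase gene, was called in no comparison and was at 89.0 to 169 CPM in all libraries.

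Of 6 listed genes for protein partners and coactivators of NFI factors 5 were tested, Nkx2-1 having too few counts. The shares of all tested genes called at each step are those given above. From ES to HB 0 were called (median −0.68 against 0), and from HB to HE1 1 rose and 0 fell (median −0.23 against 0.04), namely Ski, by 1.01 (adjusted p = 0.000890). In HE2 against HE1 (median 0.09 against −0.08), HP against HE2 (median −0.16 against 0.01) and HP against HE1 (median −0.07 against −0.02) 0 were called by edgeR. From ES to HP 2 fell (median −0.50 against −0.01), as Foxa1 fell by 2.71 on the log2 scale (adjusted p = 0.00864) and Pou2f1 fell by 1.15 (adjusted p = 0.000280). Ep300 and Crebbp, which encode histone acetyltransferases that act as coactivators, were between 201 and 361 CPM in every library.

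The 4 loci differed in size and setting. Nfia spans 346 kb and Nfib 416 kb, against 59.5 kb for Nfic and 100.5 kb for Nfix, with 12 to 14 merged exons each. No exon of an NFI gene was shared with another gene on the same strand, and exon bases shared with genes on the opposite strand numbered 4 for Nfia, 0 for Nfib, 72 for Nfic and 366 for Nfix. Read pairs had been counted by strand. Within 100 kb of Nfia lay 3 annotated genes, 0 of them with enough counts to test, and within 100 kb of Nfib 1 of 6 was tested, Zdhhc21, which was called in no comparison. Around Nfic 19 of 25 neighbours were tested, and 1 of them rose and 3 fell from ES to HB, 4 rose and 1 fell from HB to HE1, 1 rose and 0 fell from HE1 to HE2, 2 rose and 2 fell from HE1 to HP, and likewise from ES to HP. The shares of all tested genes at these steps are those given above. Gna15, which encodes a G protein subunit of hematopoietic cells, fell by 1.89 on the log2 scale from ES to HB (adjusted p = 0.000390), rose by 1.23 from HB to HE1 (adjusted p = 0.00799) and from HE1 to HE2 by 1.74 (adjusted p = 0.00484), and from HE1 to HP by 1.78 (adjusted p = 0.00133) where Nfic fell.

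Around Nfix 16 of 17 neighbours were tested, and 1 rose and 3 fell from ES to HB, 1 rose and 1 fell from HB to HE1, 2 rose and 1 fell from HE1 to HE2 and again from HE1 to HP, and 1 rose and 2 fell from ES to HP. Of all tested genes, 11.5% rose and 17.3% fell from ES to HB, and the shares at the other steps are those given above. Lyl1, which encodes a basic helix-loop-helix factor of blood progenitors, lies within the span of Nfix on the opposite strand, from 84701449 to 84704940. Its levels were 0.585, 0.172, 10.6, 9.77, 36.6, 21.3, 95.1, 142, 143 and 90.4 CPM in the 10 libraries. From ES to HB, where Nfix fell, Lyl1 rose by 4.62 on the log2 scale (SE 0.470, adjusted p = 3.76e-05), and from HB to HE1 it rose again (adjusted p = 0.00998). Lyl1 rose by 2.04 from HE1 to HE2 (adjusted p = 0.00918), where Nfix was not called. It was higher by 2.01 in HP than in HE1 (adjusted p = 0.00292), where Nfix differed by 1.10 without being called. Cacna1a, a calcium channel gene within 100 kb of Nfix, fell by 2.88 on the log2 scale from ES to HB (adjusted p = 1.45e-05) and fell by 1.55 from HE1 to HP (adjusted p = 0.00170).

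Nfia and Nfix are in the study's lists of genes with enhancers that were open before the gene became active, which were selected on these same libraries, so that their place there is not independent of the levels above. Nfia had 9 regions in the list for HB to HE, which holds 294 regions for 174 genes with a median of 1 per gene, and no gene of that list had more. Nfix had 3 regions in the list for HE to HP, which holds 237 regions for 137 genes. Nfib and Nfic had 0 in these and in the ES to HB list of 330 regions. Measured from the Ensembl start of Nfia to the midpoint of each region, 4 regions lay upstream, at 296, 26.7, 21.5 and 0.462 kb, 3 within introns, at 0.622, 232 and 336 kb, and 2 beyond the gene, at 550 and 629 kb. Of the 2 beyond the gene, the nearer lay inside the span of 0610025J13Rik. The further lay inside that of Patj, 5.585 kb from the start of Patj. The region closest to the start of Nfia is chr4:97772072-97772472. The study kept only sites distal to transcription starts, whereas the regions at 0.462 and 0.622 kb lie close to the Ensembl start used here. It linked sites to genes by published promoter contact data or, where that was not possible, by the closest gene. RefSeq starts Nfia at 97578066, 194.7 kb further upstream, so that the regions at 26.7, 21.5 and 0.462 kb lie within the RefSeq gene. Of the regions of Nfix, 1 lay 10.8 kb upstream, at chr8:84810907-84811307, and 1 lay 662 kb downstream, inside the span of Cc2d1a.

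**Figure D3:**
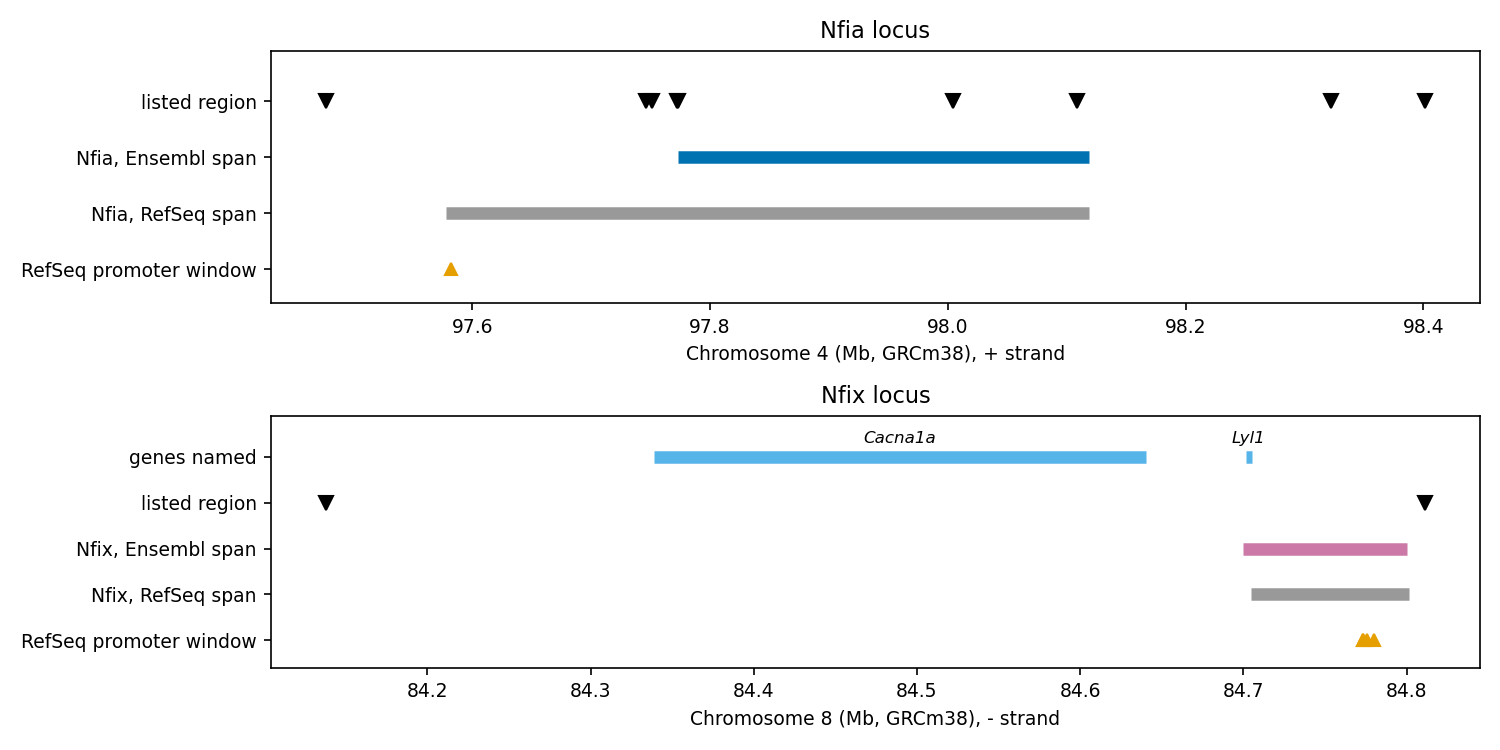
Map of the Nfia and Nfix loci in GRCm38 (horizontal axes, position in Mb), with the Ensembl and RefSeq spans as bars, the midpoints of the listed enhancer regions as black triangles, RefSeq promoter windows as orange triangles and, at Nfix, the neighbours Cacna1a and Lyl1. Nfia has 9 listed regions, of which those at 0.462 and 0.622 kb from the Ensembl start coincide at this scale, and 2 regions of Nfix are drawn.

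Promoters are shown because 3 of the 4 genes called higher from HB to HE1 have one in the reference table. For Nfix that call depended on single libraries and on the tool. Promoter windows there reach from 250 bases before to 50 after an annotated RefSeq start in GRCm38.p6. The table has 6 windows for these 3 genes among 32851. Capitals mark matches on either strand to any of 6 short motifs. The core of the NFI site, TTGGC, occurs in 46.7% of all promoter windows. The RUNX motif TGTGGT occurs in 16.8% and the GATA motif AGATAA in 11.2%. For the TEAD motif CATTCC the share is 14.7%, and for the AP-1 motif TGANTCA it is 7.81%. The E-box searched, CAGCTG, occurs in 16.3% of windows. The full palindromic NFI site was found in 0.0365% of windows and in none of these. The windows are, for Nfia, chr4:97581693-97581992 on the plus strand, for Nfic, chr10:81427124-81427423 on the minus strand, and for Nfix, chr8:84775779-84776078 (window 2) and chr8:84772826-84773125 (window 4), both on the minus strand.
Nfia: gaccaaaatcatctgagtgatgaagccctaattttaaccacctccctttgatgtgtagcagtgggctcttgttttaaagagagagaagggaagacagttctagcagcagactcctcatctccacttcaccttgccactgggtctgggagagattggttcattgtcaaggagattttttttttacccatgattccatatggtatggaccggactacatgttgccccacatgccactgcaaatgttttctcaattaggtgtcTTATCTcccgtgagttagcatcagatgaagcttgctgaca
Nfic: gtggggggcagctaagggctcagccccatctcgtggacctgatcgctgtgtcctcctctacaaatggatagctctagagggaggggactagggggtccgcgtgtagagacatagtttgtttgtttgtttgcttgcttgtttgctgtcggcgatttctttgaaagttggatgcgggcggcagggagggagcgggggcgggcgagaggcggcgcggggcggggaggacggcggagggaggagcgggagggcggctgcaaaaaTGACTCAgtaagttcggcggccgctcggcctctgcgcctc
Nfix window 2: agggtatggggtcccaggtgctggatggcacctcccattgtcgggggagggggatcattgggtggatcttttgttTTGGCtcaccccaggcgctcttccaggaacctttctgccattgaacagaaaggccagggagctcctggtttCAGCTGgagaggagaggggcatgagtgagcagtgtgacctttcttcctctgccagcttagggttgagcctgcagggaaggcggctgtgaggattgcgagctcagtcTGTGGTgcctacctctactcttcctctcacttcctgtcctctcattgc
Nfix window 4: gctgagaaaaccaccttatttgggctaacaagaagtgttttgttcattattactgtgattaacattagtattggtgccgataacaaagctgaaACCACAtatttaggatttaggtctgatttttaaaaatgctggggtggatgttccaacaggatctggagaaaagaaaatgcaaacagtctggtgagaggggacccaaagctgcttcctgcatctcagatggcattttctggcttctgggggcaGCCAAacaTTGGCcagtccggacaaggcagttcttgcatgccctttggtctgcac

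A match is a description of the letters, not a site of binding. The Nfia window, 190.8 kb upstream of the Ensembl start, holds a GATA match on the reverse strand at position 261, with 44.7% G and C and 2 CpG, against medians of 52.7% and 7 over all windows. The Nfic window, within the Ensembl span and 28.5 kb from its start, has an AP-1 match at position 261, 63.0% G and C and 24 CpG. The Nfix windows also lie within the Ensembl span, 20.3 to 27.5 kb from its start. Window 2 of Nfix holds an NFI core at position 76, an E-box at 147 and a RUNX match at 253. Window 4 holds a RUNX match at position 94 on the reverse strand and a pair of NFI cores, at 246 on the reverse strand and at 254 as printed, which do not have the order and spacing of the palindrome. Of the other Nfix windows, window 1 (chr8:84780033-84780332) has an AP-1 match at position 170 and window 3 (chr8:84773361-84773660) an NFI core at position 279. All 3 genes have more than 1 annotated start, and the counts per gene do not say which was used. GENCODE M21 lists 8 transcripts for Nfia, 12 for Nfib, 7 for Nfic and 8 for Nfix, of which 7, 7, 6 and 5 are protein coding.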

How the data were processed

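Nuclear RNA was measured in 10 libraries, 2 for each of 5 stages. The authors removed ribosomal and low-quality reads (RiboDetector, Trimmomatic), used HISAT2 (2.2.1) for alignment to mm10 and featureCounts (2.0.1, reverse-stranded) for counting read pairs on Ensembl exons. The deposited tables hold raw counts per gene and library. The deposited matrix holds a score per stage for 15686 genes, which the authors made from the counts with edgeR (3.40.2) in R (4.2.3); within a log2 difference of 4.1e-08 it matches the antilog of the stage mean of voom log2 CPM computed on those genes. Its gene filter is not stated.

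Counts were analysed with edgeR (4.0.16) in R (4.3.3): filterByExpr on stage, which kept 22596 genes, TMM scaling (factors 0.954 to 1.13), a quasi-likelihood fit to all 10 libraries with stage as the only term and 5 residual degrees of freedom, and F tests, with p-values adjusted by Benjamini-Hochberg over the 22596 genes. Calls needed an adjusted p under 0.05 and a 2-fold or larger difference. Log2 CPM used a prior count of 2. Ratios of paralogues were tested by an exact permutation test (the F statistic is two-sided by construction). Alternatives were limma-voom (limma 3.58.1), DESeq2 (1.42.0), other scalings and filters, a 4-fold threshold, a replicate block, a fit on only the 4 libraries compared, and leaving out each library. Python (3.11.15), numpy (2.4.6), pandas (2.3.3) and matplotlib (3.10.9) were used for sequences and figures. The code was tested on simulated data, where in one setting each tool, and in the other DESeq2 alone, made more false calls than the nominal rate, so calls near the threshold are less certain.

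The genes named were the 4 members in every sample, the 5 matrix genes with the highest Pearson correlation to each, all tested genes within 100 kb of a member, and the genes of the lists. The lists were markers of ES cells, mesoderm and hemangioblast, endothelium, hematopoietic progenitors, mesenchyme and smooth muscle, heart, erythroid cells, macrophages, neural cells and endoderm, genes linked to NFI factors in other tissues, and protein partners of NFI factors. The members and lists were chosen with earlier results of these data known. Promoter sequences are from RefSeq (GRCm38.p6), where 3 of 4 members matched by symbol, and symbols and transcripts are from GENCODE M21, which matched 55157 of 55487 genes; Nfib had no promoter entry. Some genes and a region that these rules name are not reported here.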

Additional observations from a re-analysis of the deposited data

How the results depend on the processing

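For the 24 comparisons of a member between stages, 312 alternative values were computed: 269 kept direction and side of the threshold, 20 lost the call, 19 gained one and 4 reversed, and 9 of the 24 results held under every alternative. Where a value below changed sides, the cause was not tested. With a 4-fold threshold fewer genes can pass by construction: 1 member was called from ES to HB, 2 from HB to HE1 and 0 from HE1 to HE2, the log2 differences of Nfix (−1.46, HB against ES; 1.29, HE1 against HB), Nfic (1.04, HE1 against HB; −1.33, HP against HE1) and Nfia (−1.58, HE2 against HE1) no longer passed, and the genes called numbered 4029, 2594 and 901 at these steps, 2086 for HP against HE1 and 5730 for HP against ES. By limma-voom, Nfix in HE1 against HB was 1.21; in HE2 against HE1 3 members were called (Nfib −2.07, Nfic −1.02); Nfix in HP against HE1 was 1.18; in HP against ES 2 members were called (Nfib −1.61); and 62 genes were called for HP against HE2, against 301 by DESeq2, where Nfix in HP against HE1 was 1.09. In HE2 against HE1, 2 members were called with total counts in place of TMM (Nfic −1.08), with library sizes without the 20 most counted genes (Nfic −1.07) and with only the genes of the matrix (Nfic −1.07). Library sizes without those 20 genes moved the median log2 difference of all genes from 0 to 0.10 in HB against ES and from −0.08 to −0.15 in HE2 against HE1, and no called member changed direction. Without a filter on low counts, HE2 against HE1 had 2 members (Nfib −1.84) and 3818 genes called, HP against HE2 1 member (Nfib −1.75) and 534 genes, HP against ES 2 members (Nfib −1.17), and Nfix in HP against HE1 was 1.12. With only the 4 libraries of the stages compared, Nfix in HE1 against HB was 1.32, and HE2 against HE1 had 0 members (Nfia −1.60) and 535 genes called. Without exon length the share of Nfic was 58.1%, 53.5%, 30.5%, 42.7% and 50.1% from ES to HP.

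Leaving out each library in turn, with a lone sample assumed to vary like the other groups, gave these lowest and highest values. Members called were 1 to 1 (HB against ES), 2 to 4 (HE1 against HB), 0 to 3 (HE2 against HE1), 0 to 2 (HP against HE2) and 1 to 2 (HP against ES). Genes called were 2803 to 5553 (HE1 against HB), 422 to 4295 (HE2 against HE1), 0 to 525 (HP against HE2) and 1905 to 5461 (HP against HE1). In HB against ES, Nfix was −1.60 to −1.30 and Nfib −0.38 to 0.0611. In HE1 against HB, Nfix was 0.60 to 1.69, Nfic 0.95 to 1.08 and Nfib 2.31 to 2.75. In HE2 against HE1, Nfia was −2.43 to −1.03, Nfib −2.89 to −1.25, Nfic −1.32 to −0.68 and Nfix −0.24 to 0.87. In HP against HE2, Nfia was −1.48 to −0.0751, Nfib −3.03 to −0.70 and Nfic −0.62 to 0.0093. Nfix in HP against HE1 was 0.68 to 1.79, and Nfib in HP against ES −2.48 to −0.50.

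Replicate numbers as given did not pair the samples in a common way. Correlations of replicate differences between stages, over the 10 pairs of stages, lay between −0.316 and 0.213. Among HB, HE1, HE2 and HP they were 0.213 for HB with HE2 and 0.133 for HE1 with HP. The other pairs of these stages had −0.316 to −0.179. With the given numbers as a block no member call changed (Nfix in HE1 against HB 1.25, adjusted p = 0.0431). Whether libraries pair under other numbers was not tested. An alternative on the central 200 bases of each listed region was not run, since no genome sequence was at hand. Depth limits Nfia in ES, at 72 and 39 counts, and Nfix in HB, at 50 and 71 counts.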
